A study of Homo sapiens with 16 samples.

Results

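The thioredoxin and peroxiredoxin system was followed through 10 genes: the thioredoxins TXN and TXN2, the thioredoxin reductases TXNRD1 and TXNRD2, and the peroxiredoxins PRDX1, PRDX2, PRDX3, PRDX4, PRDX5 and PRDX6. The genes were chosen by symbol, and all 10 were found among the 60719 gene identifiers of the count tables. RNA was sequenced from MDA-MB-231 cells, an established line of human breast cancer of the triple-negative type. Its wild-type form is called parental 231, and 231:TKO is the same line after CRISPR/Cas9 knockout of TXNIP, the thioredoxin-interacting protein, with knockout clones grown from single cells. Untreated parental 231 and untreated 231:TKO had 2 libraries each. Parental 231+siNT, parental 231+siMyc, 231:TKO+siNT and 231:TKO+siMyc had 3 libraries each, where siNT is a non-targeting siRNA and siMyc an siRNA against MYC, both for 48 hours. All 6 groups share the same cell line, so they describe 1 tumor and its knockout derivative.

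Thioredoxins are small proteins that reduce disulfide bonds in other proteins, and thioredoxin reductases return them to the reduced form with electrons from NADPH. Peroxiredoxins break down hydrogen peroxide and most of them are then reduced by thioredoxin. TXN and TXNRD1 act mainly in the cytosol and nucleus and TXN2 and TXNRD2 in mitochondria. TXNIP binds reduced thioredoxin and is known as an inhibitor of it, and its loss in 231:TKO is the reason the system was examined here. Cells, tumor cells included, use this system beside glutathione to keep peroxide low.

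Promoters of the members were searched for the E-box CACGTG, the letters that Myc:Max binds, and for TGACNNNGC, the core of the antioxidant response element bound by NRF2, a transcription factor of the oxidative stress response. Both strands were read over the 250 bases before the start, in RefSeq promoters on GRCh38.p14. The table held 7 of the 10 members, with 11 start sites. The E-box was present at 2 of these starts, in PRDX3 and PRDX4, and in 6.34% of all 35116 promoters. The antioxidant response element core was present at 2 starts, both of TXNRD1, and in 10.9% of all promoters. The 2 TXNRD1 promoters are shown because TXNRD1 had the largest knockout difference of the 10 genes, PRDX3 and PRDX4 because they hold the E-box, and PRDX5 because it had the largest difference after siMyc. Capitals mark the matched letters, all sequences read 5′ to 3′ on the gene's strand, and the PRDX5 sequence holds neither motif.
TXNRD1 first start, chr12:104215529-104215778, plus strand: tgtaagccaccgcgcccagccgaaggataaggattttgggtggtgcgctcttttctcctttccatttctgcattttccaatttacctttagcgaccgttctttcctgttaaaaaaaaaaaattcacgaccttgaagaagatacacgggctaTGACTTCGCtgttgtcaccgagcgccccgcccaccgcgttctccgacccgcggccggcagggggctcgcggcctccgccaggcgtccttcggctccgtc
TXNRD1 second start, chr12:104286782-104287031, plus strand: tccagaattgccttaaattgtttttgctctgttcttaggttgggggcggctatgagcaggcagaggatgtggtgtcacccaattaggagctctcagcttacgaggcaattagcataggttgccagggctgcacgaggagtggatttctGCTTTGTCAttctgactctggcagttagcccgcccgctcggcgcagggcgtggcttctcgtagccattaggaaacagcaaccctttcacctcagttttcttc
PRDX3, chr10:119178813-119179062, minus strand: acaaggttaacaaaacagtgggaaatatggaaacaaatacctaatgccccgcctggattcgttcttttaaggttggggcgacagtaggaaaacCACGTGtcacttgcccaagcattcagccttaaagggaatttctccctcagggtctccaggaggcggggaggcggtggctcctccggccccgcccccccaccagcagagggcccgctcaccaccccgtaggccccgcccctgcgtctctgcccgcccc
PRDX4, chrX:23667243-23667492, plus strand: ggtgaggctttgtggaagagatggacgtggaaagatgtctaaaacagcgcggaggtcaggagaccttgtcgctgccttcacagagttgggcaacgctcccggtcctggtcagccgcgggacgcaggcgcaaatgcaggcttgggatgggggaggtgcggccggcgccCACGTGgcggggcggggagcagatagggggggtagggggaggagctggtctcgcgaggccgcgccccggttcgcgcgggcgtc
PRDX5 first start, chr11:64317871-64318120, plus strand: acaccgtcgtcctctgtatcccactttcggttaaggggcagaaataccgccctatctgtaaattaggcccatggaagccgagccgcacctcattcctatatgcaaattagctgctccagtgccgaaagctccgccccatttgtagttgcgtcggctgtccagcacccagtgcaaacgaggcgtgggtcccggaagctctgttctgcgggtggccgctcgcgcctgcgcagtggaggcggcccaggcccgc
The match began 99 bases before the first TXNRD1 start, 157 bases before that of PRDX3 and 83 bases before that of PRDX4. A match in these letters describes the sequence and says nothing of binding in these cells.

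On GRCh38, TXNRD1 (ENSG00000198431) lies at chr12:104215779-104350307 on the plus strand and PRDX5 (ENSG00000126432) at chr11:64318121-64321811 on the plus strand. PRDX1 (ENSG00000117450) lies at chr1:45510914-45542732, PRDX2 (ENSG00000167815) at chr19:12796820-12801800 and TXN (ENSG00000136810) at chr9:110243810-110256507, all on the minus strand. No exon of a member was shared with another gene on the same strand. On the opposite strand PRDX1 shared 501 exon bases with MMACHC and PRDX2 shared 247 with an unnamed gene, and reads were counted by strand.

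Libraries held between 18953668 and 59799444 counts, and each of the 10 genes had at least 232 counts in every library, so none was near the limit of detection. Levels are given as CPM, counts scaled to a common library size after TMM scaling. VIM, an intermediate filament protein of mesenchymal cells, lay between 1814 and 3088 CPM. The keratin genes KRT8 and KRT18 lay between 237 and 1875 CPM and between 196 and 697 CPM. Of the receptor genes, ESR1 did not exceed 0.313 CPM and PGR 0.0799 CPM, and ERBB2 lay between 74.3 and 107 CPM. HBB was at 0 in every library, and PTPRC, a blood cell marker, lay between 1.48 and 1.51 CPM in parental 231 and between 0.0680 and 0.140 CPM in 231:TKO. The part of this difference in the results was not tested. Single reads were counted in the untreated libraries and read pairs in the siRNA-treated ones, so levels are not compared between these sets. A number opens each count column header, and the labels do not say what it stands for. This header number and the Ensembl release differed between the siRNA-treated parental 231 and 231:TKO libraries. Neither can be told apart from knockout in the siNT comparison. A pair of libraries, parental 231+siNT replicate 1 and parental 231+siMyc replicate 3, stood apart from the other libraries of their groups, and results that rest on them are given with and without them.

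TXNIP, the targeted gene, was read at 290 and 291 CPM in parental 231 and at 12.6 and 46.6 CPM in 231:TKO. The knockout libraries were lower, but they differed from each other, and the adjusted p of the TXNIP difference was 0.0587. TXNIP lay between 297 and 315 CPM in parental 231+siNT and between 6.56 and 7.92 CPM in 231:TKO+siNT. MYC, the siRNA target, fell after siMyc by 1.21 on the log2 scale in 231:TKO (adjusted p = 1.7e-11) and by 0.96 in parental 231 (adjusted p = 0.0297).

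Per length of exon, TXN and PRDX1 were the most abundant of the 10 transcripts in untreated cells and TXNRD2 the least. Levels per length are given as TPM, counts per exon length scaled to the same sum in every library. In parental 231, PRDX1, a cytosolic peroxiredoxin, was at 1038 TPM (range 1037 to 1039, n = 2) and TXN, the cytosolic thioredoxin, at 1026 TPM (1005 to 1046), and these ranges overlapped. TXNRD1 followed at 595 TPM, PRDX6, the peroxiredoxin with a single active cysteine, at 462 TPM, and PRDX3, a mitochondrial peroxiredoxin, at 439 TPM. PRDX4, which acts in the endoplasmic reticulum, was at 313 TPM, PRDX5 at 247 TPM, PRDX2 at 232 TPM and TXN2 at 109 TPM, with no overlap between neighbors in this order. TXNRD2, the mitochondrial reductase, was at 6.79 TPM. The order was the same in 231:TKO, where no neighboring ranges overlapped.

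In the siRNA set TXN had the highest mean in each of the 4 groups. It was at 1667 TPM in 231:TKO+siNT, 1535 TPM in 231:TKO+siMyc, 1769 TPM in parental 231+siNT and 1611 TPM in parental 231+siMyc. In parental 231+siMyc its range (1494 to 1832 TPM) overlapped that of PRDX5 (1293 to 1661 TPM), so first place was not resolved there. PRDX5, a peroxiredoxin found in several compartments, lay at 924 TPM in 231:TKO+siNT, below TXN and PRDX1 with 1199 TPM. After siMyc these 2 genes stood in the opposite order, with PRDX5 at 1240 TPM (1190 to 1272, n = 3) and PRDX1 at 1032 TPM (1018 to 1047). In both 231:TKO groups TXNRD1 came next after these genes, and in both parental 231 groups PRDX2 lay above it, with ranges that overlapped. In 231:TKO+siNT the ranges of PRDX6, PRDX4 and PRDX2, between 308 and 338 TPM, ran into each other, so their order was not resolved. TXN2 and TXNRD2 held the lowest 2 places in all 6 groups.

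**Figure D1:**
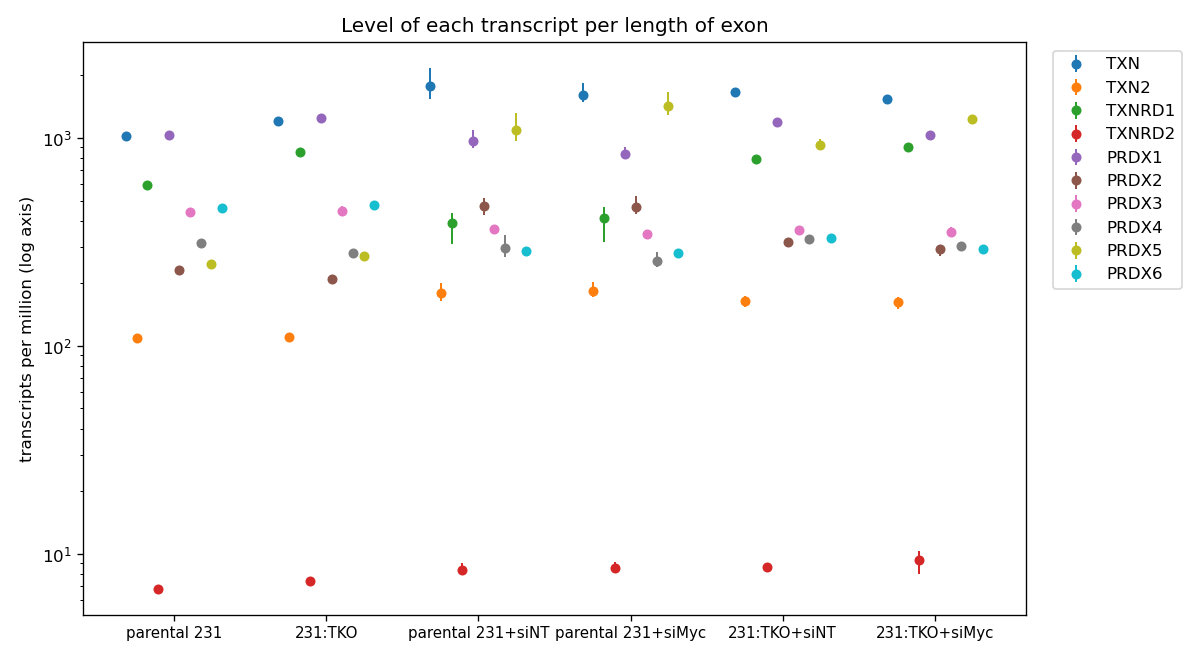
TPM of each gene (y axis, log scale) in the 6 groups (x axis); points are group means and bars run from the lowest to the highest library. TXNRD2 lies between 6.79 and 9.29 TPM in the group means, far below the other 9 genes, and the untreated pair of groups was sequenced apart from the 4 siRNA groups.

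The first comparison set 231:TKO against parental 231, both without siRNA. Knockout clones were grown from single cells, and effects of that step cannot be told apart from loss of TXNIP, here or under siNT. TXNRD1 was 1.49-fold higher in 231:TKO than in parental 231, PRDX1 1.25-fold and TXN 1.22-fold, and these 3 passed the test. No member was called lower. The 3 higher members stand against 5.43% of 19965 tested genes that were higher and 4.18% that were lower (9.61% in either direction). The median log2 fold change was 0.14 over the 10 members and 0.00 over all tested genes. In bulk RNA, a change in the number of cells that express a gene and a change in RNA per cell cannot be told apart.

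TXNRD1, the reductase of cytosolic thioredoxin, was at 875 and 871 CPM in parental 231 and at 1317 and 1286 CPM in 231:TKO. Both knockout libraries lay above both parental libraries, with a log2 fold change of 0.58 ± 0.06 (SE) and an adjusted p of 0.0106. PRDX1 was at 380 and 384 CPM in parental 231 and at 475 and 479 CPM in 231:TKO, again without overlap (log2 fold change 0.32 ± 0.06, adjusted p = 0.0323). TXN was at 230 and 224 CPM in parental 231 and at 272 and 283 CPM in 231:TKO (log2 fold change 0.29 ± 0.06, adjusted p = 0.0450). These 3 encode the cytosolic thioredoxin, its reductase and a peroxiredoxin that thioredoxin reduces. PRDX2, also a cytosolic peroxiredoxin, was not among them (log2 fold change -0.09, adjusted p = 0.451).

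The other 7 members did not pass the test. PRDX5 was at 45.7 and 47.3 CPM in parental 231 and at 52.8 CPM in both knockout libraries (log2 fold change 0.18, adjusted p = 0.180). TXNRD2 was at 12.1 and 12.3 CPM and at 13.9 and 13.6 CPM (0.18, adjusted p = 0.392), so the mitochondrial reductase had no called difference. PRDX4 was at 125 and 129 CPM and at 120 and 114 CPM (log2 fold change -0.12, adjusted p = 0.314). PRDX6, TXN2, PRDX3 and PRDX2 had log2 fold changes of 0.09, 0.08, 0.07 and -0.09. With 2 libraries a group, the 95% confidence interval for TXN2 ran from -0.12 to 0.27, so a change within that interval was not excluded.

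The calls depended on which untreated library was left out. Without either parental 231 library the calls were lost, and without either 231:TKO library more were made, among the members and among all genes. In these fits the lone library of a group is assumed to vary like the other group, so the spread is that of the group left whole. The untreated knockout libraries differed more from each other than the parental ones. Over all compared genes, the SD of a library's deviations from its group was 0.244 in each 231:TKO library and 0.0739 in each parental 231 library. The part of this difference in the calls was not tested. The log2 fold change of TXNRD1 stayed between 0.54 and 0.59 over all alternatives, that of PRDX1 between 0.31 and 0.33 and that of TXN between 0.26 and 0.31.

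**Figure D2:**
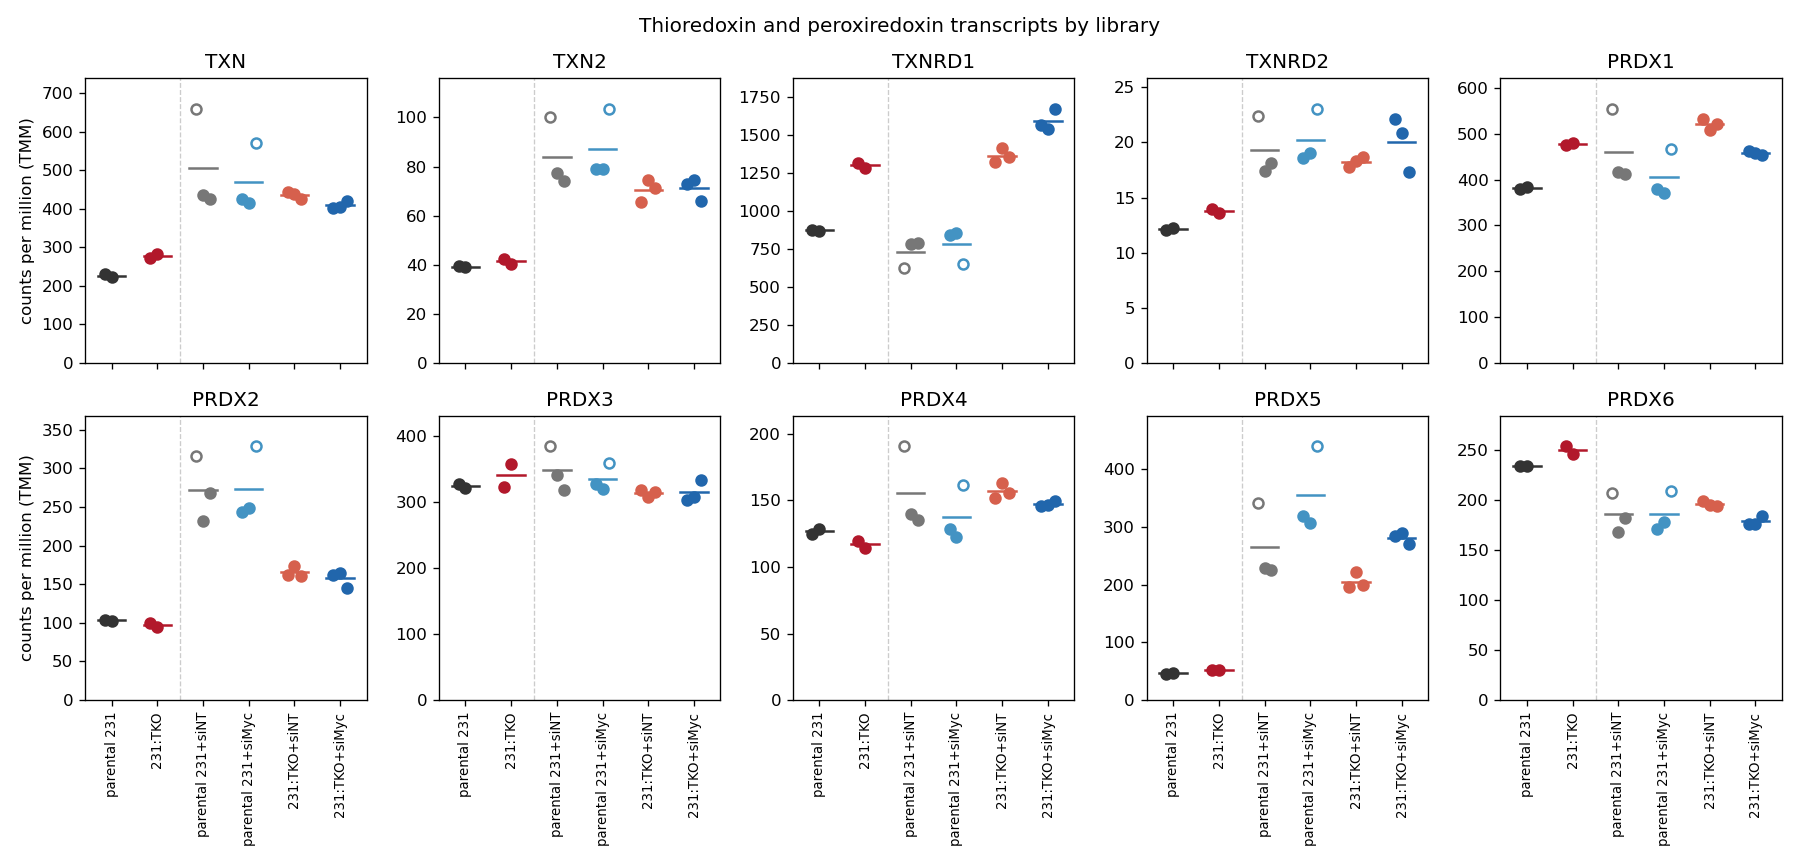
CPM of each gene (y axis, from 0) in every library of the 6 groups (x axis); points are libraries, horizontal lines group means, and open points the pair of parental 231 libraries that stood apart. Without siRNA, TXNRD1 lies between 1286 and 1317 CPM in 231:TKO and between 871 and 875 CPM in parental 231. In the siRNA set it lies between 1325 and 1674 CPM in 231:TKO and between 624 and 859 CPM in parental 231. The dashed line separates the untreated from the siRNA libraries, which were sequenced and scaled apart.

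The same knockout difference was measured under siNT. TXNRD1 was 1.87-fold higher in 231:TKO+siNT than in parental 231+siNT, and PRDX2, a cytosolic peroxiredoxin, was 0.611-fold as high. These were the 2 members that passed the test, while 36.8% of 23310 tested genes were called, 16.1% higher and 20.7% lower. The 2 called members of 10 lay below that background share.

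TXNRD1 was read at 624, 784 and 789 CPM in parental 231+siNT and at 1325, 1414 and 1357 CPM in 231:TKO+siNT. The groups did not overlap, with a log2 fold change of 0.90 ± 0.11 (adjusted p = 5.6e-05). Its value was 0.82 without parental 231+siNT replicate 1 (adjusted p = 1.5e-19) and between 0.82 and 0.98 over all alternatives (highest adjusted p = 0.00185). PRDX2 was at 316, 231 and 267 CPM in parental 231+siNT and at 162, 173 and 161 CPM in 231:TKO+siNT. All 3 knockout libraries lay below all 3 parental libraries (log2 fold change -0.71 ± 0.11, adjusted p = 0.000554), and the value was -0.57 without parental 231+siNT replicate 1.

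TXN, which was higher in untreated 231:TKO, was at 659, 435 and 426 CPM in parental 231+siNT and at 442, 437 and 425 CPM in 231:TKO+siNT. One parental library was far above the rest and the other 5 lay close together (log2 fold change -0.21, adjusted p = 0.307, and 0.04 without that library). PRDX1 was at 554, 417 and 412 CPM and at 533, 509 and 521 CPM. With the same library left out the groups of PRDX1 no longer overlapped, and the log2 fold change went from 0.18 (adjusted p = 0.258) to 0.35 (adjusted p = 9.4e-07). PRDX5 was at 342, 229 and 226 CPM and at 196, 221 and 199 CPM (log2 fold change -0.37, adjusted p = 0.0821), and the other members had log2 fold changes between -0.25 and 0.09.

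Without parental 231+siNT replicate 1, 5 members passed the test: TXNRD1, PRDX1, PRDX4 (log2 fold change 0.21) and PRDX6 (0.19) were higher and PRDX2 was lower. In that fit 48.2% of all tested genes were called. The siNT comparison also moved with gene length: over 13471 genes with a mean of at least 1 CPM the Spearman correlation between exon length and log2 fold change was 0.28, with a median of -0.22 in the shortest genes (up to 3.79 kb) and 0.14 in the longest (over 6.67 kb). Taken from differences of mean log2 CPM over 13521 genes, the correlation was 0.29 with all 6 libraries and 0.18 without parental 231+siNT replicate 1. The part of length in the results was not tested. The exons of TXNRD1 cover 6.71 kb and those of PRDX2 cover 2.03 kb. In the untreated comparison the correlation between exon length and log2 fold change was -0.01.

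The log2 knockout difference of PRDX2 was -0.71 under siNT and -0.09 without siRNA. The difference between these 2 values was -0.63 ± 0.17 (adjusted p = 0.0245), the one member called with all libraries, in a contrast that called 14.1% of 25112 genes, 6.20% higher and 7.91% lower. This contrast was added after the data were seen, and its 2 sets were counted as single reads and as pairs. Without parental 231+siNT replicate 1 it was -0.54 (adjusted p = 0.00133). In that fit, which called 20.6% of genes, 3 more members were called: TXN (-0.31, adjusted p = 0.0148) and PRDX5 (-0.37, adjusted p = 0.0114) were lower and PRDX4 (0.27, adjusted p = 0.0492) was higher. The PRDX2 call was lost without parental 231 replicate 1 (adjusted p = 0.106) or replicate 2 (0.116), 231:TKO replicate 1 (0.0518), or 231:TKO+siNT replicate 1 (0.0685) or replicate 3 (0.0719). TXNRD1 had a difference of 0.33 between the 2 values (adjusted p = 0.180), so its larger size under siNT did not pass the test.

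**Figure D3:**
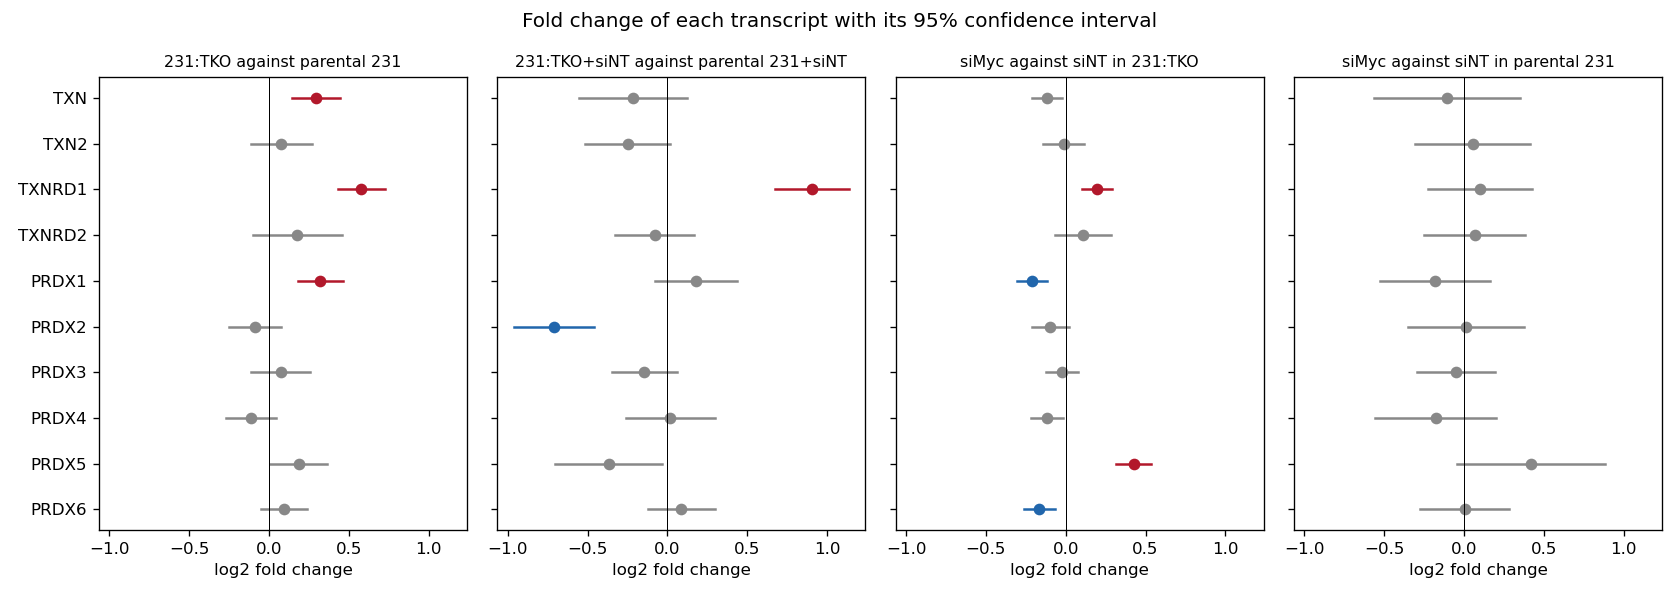
Log2 fold change of each gene (x axis) with its 95% confidence interval in 4 comparisons; red marks genes called higher, blue genes called lower and gray genes not called at an adjusted p of 0.05. TXNRD1 is higher in both knockout comparisons, PRDX5 has nearly equal values of 0.43 and 0.42 after siMyc in the 2 cell populations, and the intervals are widest in parental 231 with siRNA.

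Knockdown of MYC in 231:TKO cells raised PRDX5 1.34-fold and TXNRD1 1.14-fold, and lowered PRDX1 to 0.863-fold and PRDX6 to 0.892-fold. These 4 members passed the test, 2 in each direction. Among 22450 tested genes 27.2% were called, 13.3% higher and 13.9% lower. The median log2 fold change was -0.06 over the members and 0.01 over all genes.

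PRDX5 was at 196, 221 and 199 CPM in 231:TKO+siNT and at 284, 289 and 271 CPM in 231:TKO+siMyc. Every siMyc library lay above every siNT library, with a log2 fold change of 0.43 ± 0.05 and an adjusted p of 2.3e-06. TXNRD1 was at 1325, 1414 and 1357 CPM and at 1569, 1539 and 1674 CPM, also without overlap (log2 fold change 0.20 ± 0.05, adjusted p = 0.00256). These 2 genes rose in the cells where MYC fell.

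PRDX1 was at 533, 509 and 521 CPM under siNT and at 463, 459 and 453 CPM under siMyc (log2 fold change -0.21 ± 0.04, adjusted p = 0.000983). PRDX6 was at 199, 195 and 194 CPM and at 176, 176 and 184 CPM (log2 fold change -0.16 ± 0.05, adjusted p = 0.0107). In both, all 3 siMyc libraries lay below the siNT libraries. The PRDX6 call was lost without 231:TKO+siNT replicate 1 (adjusted p = 0.0724) or 231:TKO+siMyc replicate 2 (adjusted p = 0.0707). In 1 fit of all 12 siRNA libraries, which share 1 estimate of the spread, none of the 4 was called, with adjusted p of 0.0989 for PRDX5, 0.236 for TXNRD1, 0.367 for PRDX1 and 0.455 for PRDX6. Their log2 fold changes in that fit were 0.45, 0.22, -0.19 and -0.14.

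TXN was at 442, 437 and 425 CPM and at 402, 405 and 419 CPM (log2 fold change -0.12, adjusted p = 0.0585). The groups did not overlap, and the difference lay just outside the threshold. PRDX4, with an E-box in its promoter, was at 152, 163 and 155 CPM and at 146, 146 and 150 CPM (log2 fold change -0.12, adjusted p = 0.0764). PRDX3, the other gene with an E-box, was at 319, 308 and 315 CPM and at 304, 308 and 334 CPM, with overlapping groups (-0.02, adjusted p = 0.785). PRDX2, TXN2 and TXNRD2 had log2 fold changes of -0.10, -0.01 and 0.11 and were not called. Without 231:TKO+siMyc replicate 3, 7 members and 6923 genes passed the test, where 6106 genes passed with all libraries.

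In parental 231 cells siMyc gave no call among the 10 members with edgeR or DESeq2, and 0 members had an unadjusted p under 0.05 in edgeR, in a comparison that called 0.594% of 23728 genes, 0.240% higher and 0.354% lower. PRDX5 was at 342, 229 and 226 CPM under siNT and at 320, 307 and 440 CPM under siMyc. The high siNT library and the high siMyc library were the pair that stood apart, and through them the groups overlapped (log2 fold change 0.42 ± 0.20, adjusted p = 0.395). With that pair left out, 229 and 226 CPM stood against 320 and 307 CPM, and PRDX5 was 1.37-fold higher (log2 fold change 0.46 ± 0.05, adjusted p = 1.6e-05). Over all alternatives the value ran from 0.23 to 0.64 and the adjusted p up to 0.71, so its direction held and its call depended on the pair.

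PRDX1 was at 554, 417 and 412 CPM under siNT and at 380, 371 and 467 CPM under siMyc (log2 fold change -0.18, adjusted p = 0.657). Without the pair it was lower in both siMyc libraries (log2 fold change -0.15 ± 0.05, adjusted p = 0.0427). PRDX4 was at 191, 140 and 135 CPM and at 128, 122 and 162 CPM (-0.18, adjusted p = 0.708), and at -0.14 without the pair (adjusted p = 0.0583). The 2 members called without the pair, PRDX5 higher and PRDX1 lower, stand against 20.8% of genes called in that fit. TXNRD1 was at 624, 784 and 789 CPM and at 840, 859 and 653 CPM (log2 fold change 0.10, adjusted p = 0.829), and at 0.11 without the pair (adjusted p = 0.153).

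The pair differed from the other libraries by gene length. In parental 231+siNT replicate 1, the Spearman correlation across 13521 genes between exon length and the log2 difference from the other 2 libraries of its group was -0.59, and in parental 231+siMyc replicate 3 it was also -0.59. Members with short exons were the most raised: TXN, of 1.01 kb, was 53.1% and 35.6% higher than the other 2 libraries of the group, and PRDX5, of 0.86 kb, was 50.3% and 40.6% higher. TXNRD1, of 6.71 kb, was lower by 20.7% and 23.2%. TXNRD2, of 8.20 kb, went against this order and was 25.1% and 21.7% higher. The 9 members other than TXNRD1 were read higher in these 2 libraries whatever the siRNA.

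**Figure D4:**
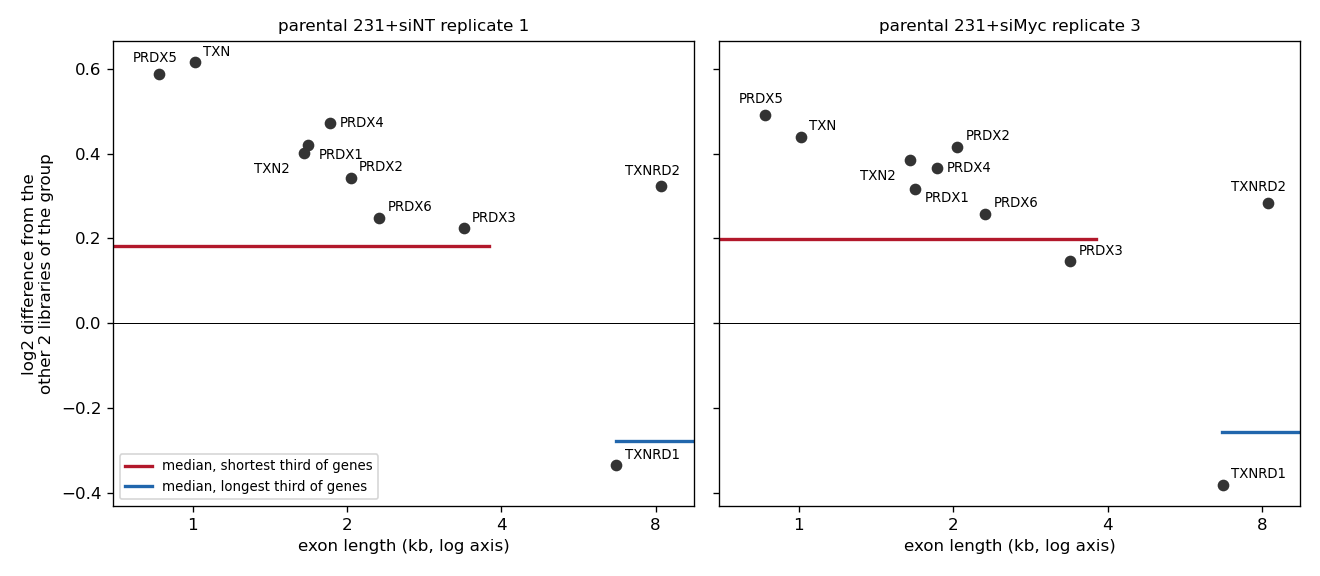
Log2 difference of each gene in the 2 parental 231 libraries that stood apart from the mean of the other 2 libraries of the group (y axis) against the gene's exon length in kb (x axis, log scale); colored lines are medians over the shortest genes (up to 3.79 kb) and the longest (over 6.68 kb) among 13521. The differences run from 0.61 for TXN to -0.33 for TXNRD1 in the siNT library and from 0.49 for PRDX5 to -0.38 for TXNRD1 in the siMyc library, while TXNRD2 lies above 0 in both.

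Whether the response to siMyc differed between 231:TKO and parental 231 was tested as an interaction over the 12 siRNA libraries. No member was called with edgeR or DESeq2, 0 members had an unadjusted p under 0.05 in edgeR, and 0% of 25812 genes were called with edgeR, where 1039 genes had an unadjusted p under 0.05 and DESeq2 called 6. The difference for PRDX5 was 0.03 with a 95% confidence interval from -0.45 to 0.52, and without the pair it was -0.07 with an interval from -0.23 to 0.09. For PRDX1 it was -0.00 (interval -0.33 to 0.32), and without the pair -0.10 (-0.26 to 0.05). For TXNRD1 it was 0.12 (-0.19 to 0.44) and for PRDX6 -0.14 (-0.42 to 0.14). The PRDX6 interval without the pair, from -0.36 to -0.04, lay below 0, but its adjusted p was 0.411.

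Genes around the members were described to see whether a call was shared by its region. Within 10 Mb of TXNRD1, the median log2 fold change of 119 other expressed genes was 0.05 in untreated 231:TKO against parental 231, where that of TXNRD1 was 0.58. Under siNT 123 such genes had a median of -0.37, where TXNRD1 had 0.90. Of these neighbors 94.1% lay below TXNRD1 without siRNA and 99.2% under siNT. In the untreated comparison 85.7% of the neighbors of PRDX1 and 83.1% of those of TXN lay below the member. The part of the regions in these differences was not tested. For PRDX2 the 360 neighbors had a median of -0.37 under siNT, and 29.4% of them lay below the -0.71 of PRDX2. For PRDX5 after siMyc, the neighbors had medians of 0.05 in 231:TKO and 0.03 in parental 231, where PRDX5 had 0.43 and 0.42.

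Over the 12 siRNA libraries, 35 of the 45 pairs of members had a positive Pearson correlation of log2 CPM, and 8 of the 10 negative pairs held TXNRD1. These points share header numbers, knockout status and the 2 libraries that stood apart, and the median correlation went from 0.43 to -0.10 without those 2. The pair that moved most oppositely was TXNRD1 and PRDX2, with -0.98 over 12 libraries and -0.97 over 10. Among 9709 other genes with a mean of at least 10 CPM, the patterns nearest TXNRD1 were those of B4GALT5, ACSL1 and PLEKHB2, with correlations of 0.996 to 0.997. Nearest PRDX2 were MRPS18B, HRAS and AP2S1 (0.995 to 0.998), nearest PRDX5 were MSRB2, ATRAID and GABARAPL2 (0.980 to 0.986), nearest TXN were COX7C, CKLF and CBR3 (0.979 to 0.983) and nearest PRDX1 were CISD1, HINT1 and POLR2J (0.957 to 0.966). For TXN2 they were OAZ1, CIB1 and ELOB, for TXNRD2 CHCHD5, NFKBIE and SYNGR2, for PRDX3 HSD17B11, DNAJC19 and DPM1, for PRDX4 HMGB2, HINT1 and DGUOK, and for PRDX6 TIPRL, PSMB2 and MRPL44, all between 0.907 and 0.980.

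Genes that work with the thioredoxin system were counted by list. In untreated 231:TKO against parental 231, 5.43% of all tested genes were higher and 4.18% lower. There the NRF2 pathway list, which holds regulators beside targets, had 4 genes higher and 2 lower of 8. TXNRD1 is a known target of this pathway, and the part of NRF2 in its difference was not tested. HMOX1, of the same list, had means of 10.3 CPM in parental 231 and 9.55 CPM in 231:TKO. GCLC and GCLM, of the glutathione list, had means of 46.7 and 142 CPM in parental 231 and of 43.3 and 138 CPM in 231:TKO. SLC7A11, which imports cystine, went from 98.0 to 228 CPM (log2 fold change 1.22 ± 0.10), NQO1, a quinone reductase, had 1.13 ± 0.19, KEAP1, which marks NRF2 for breakdown, had 0.45, and MAFK had -0.49. The glutathione and glutaredoxin list had 4 of 13 higher and none lower: GPX8 (0.61), GLRX5 (0.48), GPX3 (0.44) and GPX1 (0.32). NNT, a mitochondrial source of NADPH (0.91), and NADK2 (0.64) were the 2 called of 12 NADPH supply genes, and SOD1 (0.35) was the one called of 3 superoxide dismutases and catalase. TXNL1 was higher (0.97) and NXN lower (-0.66) among 18 thioredoxin-like proteins. No gene was called by edgeR in the lists of 8 reactivation and methionine repair genes and 7 selenoprotein synthesis genes, of which 5 and 0 had an unadjusted p under 0.05. SRXN1, which repairs overoxidized peroxiredoxins and was chosen here after its value was seen, had a log2 fold change of 0.90 (adjusted p = 0.0612).

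Under siNT the NRF2 pathway list had 5 genes higher and 2 lower of 8, both with and without the parental library that stood apart. Of all tested genes 36.8% were called with that library, 16.1% higher and 20.7% lower, and 48.2% without it. SLC7A11 went from 35.1 to 149 CPM (log2 fold change 2.09 ± 0.15), and NQO1 (0.90), HMOX1 (0.76) and MAFK (-0.76) followed. KEAP1, higher in 231:TKO without siRNA, was lower here, with means of 144 CPM in parental 231+siNT and 110 CPM in 231:TKO+siNT. The NADPH supply list had 3 higher and 2 lower of 12, with ME1, the cytosolic malic enzyme (1.29), MTHFD2 (0.82), ME3 (-0.63) and NNT (0.48). The glutathione list had 4 higher and 3 lower of 13, with GPX1 (-0.77), GSR, which reduces glutathione (0.71), GLRX (-0.69) and GCLC (0.56). SOD3 (-0.66) and CAT (-0.58) were lower among 3 genes, MSRB3 (-1.05) and SESN3 (-0.74) lower and SESN1 (0.50) higher among 8, and TXNDC16 (0.67), NXN (-0.65), TXNDC12 (-0.40) and TMX1 (-0.36) were the called ones of 18 thioredoxin-like proteins. RRM2B (0.39) and TXNIP (-5.42) were called among 7 partners and clients, and EEFSEC (-0.51) and PSTK (-0.44) among 7 selenoprotein synthesis genes. Without parental 231+siNT replicate 1 most of the other lists had more calls. The thioredoxin-like proteins then had 3 higher and 6 lower, the NADPH supply list 5 higher and 2 lower, the glutathione list 5 higher and 4 lower and the partners and clients 3 higher and 2 lower. Of the superoxide dismutases and catalase 1 was then higher and 2 lower, of the selenoprotein synthesis genes 3 lower, and of the reactivation and methionine repair genes 1 higher and 2 lower, as with it.

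After siMyc in 231:TKO, 27.2% of all tested genes were called, 13.3% higher and 13.9% lower. Of 18 thioredoxin-like proteins 8 were lower and 1 higher, led by TXNL4B (log2 fold change -0.42), TXNDC12 (-0.41), TMX2 (-0.34) and TXNL4A (-0.30). RRM2 and RRM1, the subunits of ribonucleotide reductase, which thioredoxin can reduce, fell by 0.77 and 0.39 on the log2 scale, APEX1 fell by 0.34, and TXNIP was 0.40 higher, from 7.08 to 9.54 CPM. Among the NADPH supply genes, MTHFD2 (-0.70) and MTHFD1 (-0.42) were lower and IDH1 (0.31) was higher. The glutathione list had 5 higher, among them GPX7 (0.57), GPX3 (0.44) and GPX4 (0.32), and 4 lower, among them GLRX3 (-0.27). SOD3 (0.59) and CAT (0.32) were higher. SRXN1 was lower (-0.33) while MSRB2 (0.26) and MSRA (0.25) were higher. PSTK (-0.42) and SEPHS1 (-0.25) were lower and SECISBP2 (0.16) higher, and in the NRF2 list HMOX1 (0.41) and NQO1 (0.18) were higher and SLC7A11 (-0.19) lower.

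After siMyc in parental 231, 0.594% of all tested genes were called, and TXNIP was the only one in the 8 lists. It was at 304 CPM under siNT and 450 CPM under siMyc (log2 fold change 0.57, adjusted p = 0.0458). Without the pair of libraries 20.8% of all tested genes were called. In that fit 5 of 18 thioredoxin-like proteins were lower and 2 higher. Of the NRF2 list and of the reactivation and methionine repair genes, 3 of 8 each were higher. The glutathione list then had 4 higher and 2 lower of 13, the NADPH supply list 2 higher and 3 lower of 12, and the partners and clients 1 higher and 3 lower of 7. Of the superoxide dismutases and catalase 2 of 3 were higher, and of the selenoprotein synthesis genes 1 of 7 was lower.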

How the data were processed

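STAR alignments to GRCh38 were counted by the authors with featureCounts 1.6.3, on the reverse strand, over Ensembl genes of release 102, or of release 104 for the siRNA-treated parental 231 libraries. They deposited raw counts per gene with no normalization, which is the unit used here. The 10 genes, the gene lists and the comparisons were chosen with earlier results of these data known. Genes whose counts in a comparison summed to more than 5 were tested with edgeR 4.0.16 (quasi-likelihood, robust, TMM, no covariate), and p-values were adjusted by Benjamini-Hochberg over all genes tested, with a threshold of 0.05. ± is 1 SE. Alternatives were DESeq2 1.42.0, its size factors, other filters, a stricter threshold, a replicate block, 1 surrogate variable (sva 3.50.0), 1 fit of the 12 siRNA libraries and leaving out libraries. CPM used TMM factors, and TPM used each table's exon lengths. All 10 members were named in every comparison, and at most 4 called genes per list, by size of log2 fold change, with a mean of at least 1 CPM. KEAP1 under siNT was named beyond these. List counts cover the genes tested. Pseudogenes of the members held few counts. Code was tested on simulated data. Nothing in the labels says that replicates of the untreated groups came from separate cultures, so p-values measure the spread between these libraries. Protein sequences were not used here. Some genes of the lists are not reported here.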

Additional observations from a re-analysis of the deposited data

Results flagged for a closer look

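PRDX2 was flagged because its knockout difference was not the same in the 2 sets: the log2 fold change under siNT minus that without siRNA was -0.627, with an adjusted p of 0.0245. The PRDX2 values were 316, 231 and 267 CPM in parental 231+siNT against 162, 173 and 161 CPM in 231:TKO+siNT, while in the untreated libraries its log2 fold change was -0.089 (adjusted p = 0.451). The sets differ in header number, read layout and Ensembl release, and the part of these in the difference was not tested.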

How the results depend on the processing

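Groups held 2 or 3 libraries, the siNT comparison cannot be told apart from its header number and Ensembl release, and p-values cover the spread between libraries only. Of the members' log2 fold changes under the alternatives, 82 of 100 in 231:TKO against parental 231, 119 of 140 after siMyc in 231:TKO, 134 of 160 after siMyc in parental 231 and 131 of 150 under siNT kept their direction and side of the threshold. The cause of the changes below was not tested. Replicate numbers did not pair the samples: the correlation of same-numbered deviations was 0.0244 in the untreated set, and -0.145, 0.127 and 0.262 between siNT and siMyc in 231:TKO. Between siNT and siMyc in parental 231 it was -0.809, 0.628 and -0.743, where the pair that stood apart carries different replicate numbers. So a replicate block shares only a number. With it, 1 member and 904 genes were called in 231:TKO against parental 231, with TXN (adjusted p = 0.120) and PRDX1 (0.0988) lost, and 0 genes after siMyc in parental 231, and TXN passed the threshold after siMyc in 231:TKO (adjusted p = 0.0423).

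In 231:TKO against parental 231, an adjusted p of at most 0.01 left 0 members and 229 genes, and leaving out 1 library gave 0 to 7 members and 0 to 7002 genes. PRDX3 then ran from -0.0072 to 0.13. After siMyc in 231:TKO, 1 fit of the 12 siRNA libraries called 0 members and 2493 genes and turned TXN2 to 0.015 and PRDX3 to 0.0046. With 1 surrogate variable 7 members and 8312 genes were called. Leaving out 1 library gave 3 to 7 members, 4665 to 6923 genes and TXN2 from -0.059 to 0.041.

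After siMyc in parental 231, the 141 genes called became 0 at an adjusted p of at most 0.01, 1110 with DESeq2, 91 with DESeq2 size factors in edgeR, 330 without the filter, 225 with more than 5 counts in every library, 1666 in 1 fit of the 12 siRNA libraries, 6391 with 1 surrogate variable, 4673 without the pair of libraries and 6363 with a factor for it, both added after seeing the data. Members called were 3 with the surrogate variable, 2 without the pair and 3 with the factor. Leaving out 1 library gave 0 to 160 genes. PRDX6 turned to -0.0044 without the filter, to -0.0081 with more than 5 counts in every library and to -0.0029 without the pair, and PRDX2 turned to -0.00038 with more than 5 counts in every library and -0.021 without the pair. Leaving out 1 library gave PRDX6 from -0.094 to 0.088, PRDX2 from -0.15 to 0.13, TXN from -0.28 to 0.12, TXNRD1 from -0.0069 to 0.21, PRDX3 from -0.11 to 0.023, TXN2 from -0.093 to 0.20 and TXNRD2 from -0.044 to 0.18.

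In 231:TKO+siNT against parental 231+siNT, 1 surrogate variable called 7 members and 11909 genes, where the main fit called 8578 genes. Over each library left out 2 to 5 members and 6246 to 10875 genes were called, and the library of the pair gave 5 and 10875. Without the library of the pair TXN turned to 0.041 and TXNRD2 to 0.059. Over each library left out TXN ran from -0.31 to 0.041, TXNRD2 from -0.15 to 0.059 and PRDX4 from -0.061 to 0.21.

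In the interaction between the siMyc responses, where edgeR called 0 genes (1039 at an unadjusted p under 0.05), DESeq2 called 6, 1 surrogate variable 134, the fit without the pair 63 and that with its factor 147. TXN turned to -0.017 with DESeq2 and with its size factors and to -0.12 without the pair, PRDX5 to -0.0012 with both and to -0.067, and PRDX1 to 0.0055 with 1 surrogate variable. Without the pair TXNRD2 was -0.0053, PRDX3 -0.032 and PRDX4 -0.017. Leaving out 1 library gave TXN from -0.27 to 0.13, PRDX5 from -0.24 to 0.16, PRDX1 from -0.21 to 0.065, TXN2 from -0.24 to 0.046, TXNRD2 from -0.099 to 0.17, PRDX3 from -0.075 to 0.083, PRDX4 from -0.14 to 0.16, PRDX2 from -0.26 to 0.021 and TXNRD1 from -0.045 to 0.20. In the difference between the knockout effects, an adjusted p of at most 0.01 left 0 members and 1802 genes, 4 members were called without the pair, and leaving out 1 library gave 0 to 4 members and 1758 to 5066 genes. PRDX6 was 0.018 with DESeq2 and with its size factors, 0.0095 with more than 5 counts in every library and 0.035 without the pair, and from -0.086 to 0.035 over each library left out.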
